A study of Mus musculus with 7 samples.

Results

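Laminins, the proteins that bind laminin into a basement membrane, 3 other matrix glycoproteins and the integrin subunits were compared between neural crest-derived and other cells of the mouse bowel at embryonic day 17.5. The genes were chosen by symbol: laminin alpha, beta and gamma chains, both nidogens, Hspg2, Agrn, Fn1, Vtn and Tnc as matrix members, and integrin alpha and beta subunits (the beta subunits numbered 1 to 8) as receptors. This gave 43 genes of 19938 tested, 17 of the matrix and 26 integrin subunits. All embryos carried Wnt1-Cre, a recombinase expressed under a promoter of the dorsal neural tube and early neural crest, and R26R-EYFP, a reporter that makes the fluorescent protein EYFP once Cre has acted. Fluorescence-activated cell sorting of whole bowel gave 4 YFP-positive samples of enteric neural crest-derived cells (ENCDC), which are the precursors of the enteric nervous system and the neurons and glia they form, and 3 YFP-negative samples that hold the remaining cell types together. The reporter marks descent from a Wnt1-expressing cell and not a present cell state. The labels do not say whether samples came from separate animals, litters or pools, so a p-value here weighs a difference only against the spread among the deposited samples, which may be technical.

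Laminins are cross-shaped trimers of an alpha, a beta and a gamma chain that self-assemble at cell surfaces into basement membranes. Nidogens, the proteoglycan perlecan (Hspg2) and agrin (Agrn) tie the laminin sheet to collagen IV and to cells, while fibronectin (Fn1), vitronectin (Vtn) and tenascin-C (Tnc) lie in the matrix outside the basement membrane or in blood plasma. Integrins are receptors of 1 alpha and 1 beta subunit, and the pair decides the ligand: laminin, collagen, proteins with an RGD (arginine-glycine-aspartate) site, or counter-receptors on other cells. ENCDC migrate through the matrix of the gut mesenchyme during colonization, and integrins with the beta 1 subunit are known to be needed for colonization of the hindgut.

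Values are log2 expression levels from Affymetrix gene arrays, and the median level of an array over the genes tested lay between 5.87 and 5.92. Levels were compared only for the same gene, since probe sets differ in brightness. The values carry no detection call, and the number of arrays limits their precision. Neural markers matched the labels of the sort. Ret, the GDNF receptor gene, stood at 9.41 to 9.90 on YFP-positive and 5.99 to 6.58 on YFP-negative arrays. The glial and progenitor gene Sox10 stood at 7.86 to 8.33 against 5.33 to 5.77, and the neuronal tubulin gene Tubb3 at 10.20 to 11.26 against 5.31 to 6.20. The neuron list (7 genes) had mean levels of 9.65, 9.59, 9.38 and 9.13 on YFP-positive arrays 1 to 4. The glia and progenitor list (6 genes) had 8.69, 8.66, 8.28 and 8.30. Both were lower on arrays 3 and 4 than on arrays 1 and 2. Several non-neural marker lists rose in steps from YFP-positive array 1 to array 4. Among them were the fibroblast list (8 genes, mean level 7.20, 7.39, 7.99 and 8.22 on arrays 1 to 4), the smooth muscle list (9 genes, 7.47, 8.11, 8.67 and 9.11), the intestinal epithelium list (15 genes, 6.97, 7.32, 7.85 and 8.07) and the myeloid list (9 genes, 5.42, 5.83, 6.32 and 6.53). The T cell list (4.42, 4.23, 4.53 and 4.32) did not follow this order, nor did the endothelium, mast cell, platelet and erythroid lists. On the YFP-negative arrays the epithelium list lay at 7.71 to 7.82, below YFP-positive arrays 3 and 4. None of its 15 genes was called between the groups, so these markers did not set the YFP-positive samples apart from the rest. Whether other cell types were present in the YFP-positive samples was not tested. Because the lists differed between the YFP-positive arrays, results are also given for YFP-positive arrays 1 and 2 only.

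**Figure D1:**
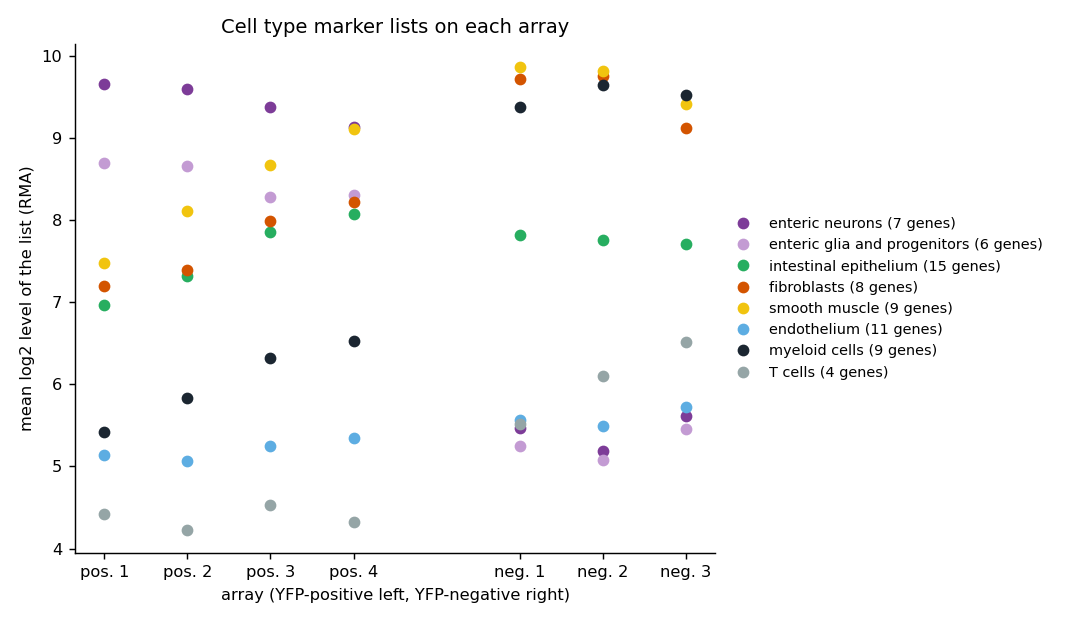
Mean log2 level (RMA) of 8 cell type marker lists on each of the 7 arrays, with YFP-positive arrays on the left and YFP-negative arrays on the right; each point is the mean over the measured genes of a list. Neuron and glia lists were higher on all 4 YFP-positive arrays, and the fibroblast, smooth muscle and myeloid lists were lower there, with higher levels on arrays 3 and 4 than on arrays 1 and 2. The intestinal epithelium list went from 6.97 on YFP-positive array 1 to 8.07 on array 4, against 7.71 to 7.82 on YFP-negative arrays.

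At a limma adjusted p under 0.05, 5 of the 43 genes had a higher level in YFP-positive cells, 15 had a lower one, and 23 did not pass. In sorted bulk samples, fewer cells of a type and less RNA per cell cannot be told apart. Over all genes tested, 8.39% were called higher and 9.11% lower. A difference of at least 2-fold was called for 3 members on the higher side (3.12% of all genes) and 12 on the lower side (4.53%). The median log2 fold change, the YFP-positive minus the YFP-negative mean, was -0.30 over the members and 0.01 over all genes. The calls were unevenly placed between ligands and receptors: 4 of 17 matrix genes passed, 2 in each direction, and 16 of 26 integrin subunits, 3 higher and 13 lower. Whether matrix genes and integrins differ in this was not tested. The 2 lower matrix genes became 0 when YFP-negative array 2 was left out and 1 when YFP-negative array 1 or YFP-positive array 1, 2 or 3 was. The groups did not overlap for 5 members on the higher and 20 on the lower side, where 13.5% of all genes fell on each side.

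**Figure D2:**
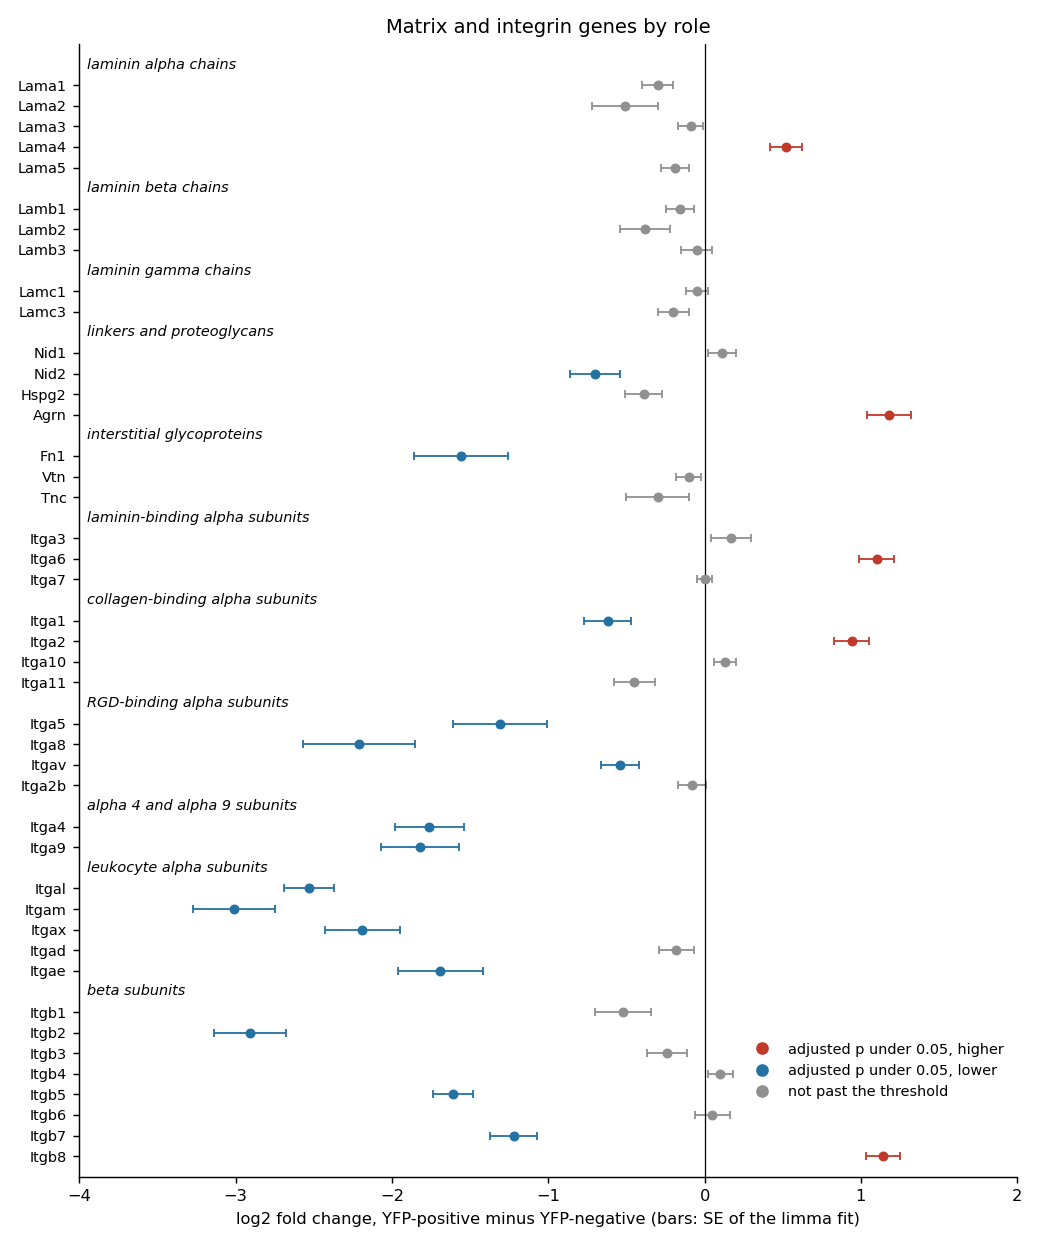
Log2 fold change (YFP-positive minus YFP-negative, horizontal axis) of all 43 genes, ordered by role, with the standard error of the limma fit as bars; red marks genes higher and blue genes lower at an adjusted p under 0.05, and grey the rest. Laminin chains lie between -0.51 (Lama2, not past the threshold) and 0.52 (Lama4), and the integrins reach from -3.01 (Itgam) to 1.14 (Itgb8).

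Laminin chains lay within a log2 fold change of -0.51 to 0.52 between the sorted populations. Of 10 measured chains, 1 was higher, 0 were lower and 9 did not pass in the limma fit, while 4 had an unadjusted p under 0.05. For 10 genes these counts lie near the shares over all genes tested, 8.39% higher and 9.11% lower. The chain that passed was Lama4, the alpha chain of laminins of vessels and peripheral nerve. Its log2 level was 8.90, 8.75, 8.66 and 8.60 on YFP-positive arrays 1 to 4 and 8.29, 8.30 and 8.02 on YFP-negative arrays 1 to 3. Every YFP-positive array lay above every YFP-negative array, by a log2 fold change of 0.52 ± 0.10 (SE; limma adjusted p = 0.0135), a 1.44-fold difference. The fold change was 0.62 on YFP-positive arrays 1 and 2 only, where the fibroblast and smooth muscle lists were lowest. Of 11 endothelial genes 1 was higher and 2 lower (mean level 5.07 to 5.34 on YFP-positive and 5.49 to 5.72 on YFP-negative arrays). The higher one was the VEGF receptor gene Kdr at 0.86 ± 0.09 and the lower ones were Pecam1 at -1.74 ± 0.18 and Emcn at -0.80 ± 0.17, while the defining gene Cdh5 (-0.75 ± 0.23) did not pass. All 5 pericyte genes were lower, among them Pdgfrb at -1.67 ± 0.24. The part of vessel cells, fibroblasts and smooth muscle in the value of Lama4 was not tested.

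Lamc1 and Lamb1, the gamma and beta chains shared by most laminins, were close to equal in both populations. Lamc1 had a level of 9.03 ± 0.11 (SD, n = 4) in ENCDC and 9.07 ± 0.04 (SD, n = 3) in the other cells, and the 95% interval of its log2 fold change ran from -0.22 to 0.12. That of Lamb1 ran from -0.38 to 0.06 around -0.16, and Lamb1 was called lower when YFP-negative array 3 was left out (-0.27; limma adjusted p = 0.0339). These unadjusted intervals, which concern the sorted samples, span only differences well under 2-fold in either direction. They set no limit on a difference between unmixed cell types. Lamb2, the beta chain of the neuromuscular junction and other specialised sites, stood at -0.38 ± 0.16.

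The remaining alpha chains gave small negative values that did not pass. Lama2, the main alpha chain around muscle and Schwann cells, had the largest at -0.51 ± 0.21, with YFP-positive levels of 6.17 to 6.71 and YFP-negative levels of 6.53 to 7.34 that overlapped; it passed only with array weights (-0.73; limma adjusted p = 0.0397). Lama1 (-0.30 ± 0.10), an alpha chain of early basement membranes, and Lama5 (-0.19 ± 0.09), the broad epithelial alpha chain, followed, with Lama3 at -0.09 ± 0.08. Lama3 and Lamb3 (-0.05 ± 0.10), chains of the epithelial anchoring laminin, had an identical value to 6 decimals on 5 and on 4 of the 7 arrays, as 16.4% of all genes had on 4 or more. Lamc3 stood at -0.20 ± 0.10.

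Among the proteins that link laminin to the rest of the basement membrane, agrin and nidogen-2 moved in opposite directions. Agrn, a heparan sulfate proteoglycan that neurons deposit at synapses and that binds dystroglycan, was 2.27-fold higher in YFP-positive cells. Its level was 8.36, 8.17, 7.83 and 8.19 on YFP-positive arrays 1 to 4 and 7.10, 6.99 and 6.78 on the YFP-negative arrays. The groups were apart by 0.73 at their nearest arrays, and the log2 fold change was 1.18 ± 0.14 (SE; limma adjusted p = 0.00134), or 1.31 on YFP-positive arrays 1 and 2 only.

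Nid2 was lower in YFP-positive cells, at 6.99, 7.10, 6.90 and 7.06 against 8.03, 7.78 and 7.32 on YFP-negative arrays 1 to 3. The YFP-negative arrays spread widely, and array 3 came closest to the YFP-positive range. The log2 fold change was -0.70 ± 0.16 (SE; limma adjusted p = 0.0237). The call was lost without any one of the 7 arrays except YFP-negative array 3 (limma adjusted p from 0.0563 to 0.0929 in those 6 fits), and on YFP-positive arrays 1 and 2 only (0.150). Its paralog Nid1 did not differ detectably (0.11 ± 0.09, 95% interval -0.11 to 0.33), with YFP-positive levels of 8.56 to 8.57. Perlecan's gene Hspg2 was 7.24 to 7.71 on YFP-positive and 7.74 to 7.86 on YFP-negative arrays, ranges that came close without overlap, and missed the threshold (-0.39 ± 0.12; limma adjusted p = 0.0698). It passed on YFP-positive arrays 1 and 2 only (-0.53; limma adjusted p = 0.0125) and without YFP-positive array 4 (0.00781).

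Fibronectin had the largest difference of the 17 matrix members. Fn1 had levels of 7.67, 7.76, 8.59 and 8.73 on YFP-positive arrays 1 to 4 and of 9.66, 10.09 and 9.50 on the YFP-negative arrays. All YFP-positive arrays were lower, and arrays 3 and 4 lay between arrays 1 and 2 and the YFP-negative group. The log2 fold change of -1.56 ± 0.30 (SE; limma adjusted p = 0.0128) is a 2.95-fold difference, and it was -2.03 on YFP-positive arrays 1 and 2 only. Without YFP-negative array 2 the call was lost (limma adjusted p = 0.0602). The fibroblast list ran the same way, with 8 of 8 genes lower and a mean of 7.20 to 8.22 on YFP-positive against 9.12 to 9.75 on YFP-negative arrays (Pdgfra at -2.18 ± 0.36, Col1a1 at -1.65 ± 0.30), and the part of fibroblasts in the value of Fn1 was not tested.

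The other interstitial glycoproteins gave no call. Tnc, an anti-adhesive protein of the gut mesenchyme, stood at 6.65 to 7.12 on YFP-positive and 6.82 to 7.57 on YFP-negative arrays (-0.30 ± 0.20). Vtn, mainly a liver product found in plasma, had the same value on 5 of 7 arrays (-0.10 ± 0.08).

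**Figure D3:**
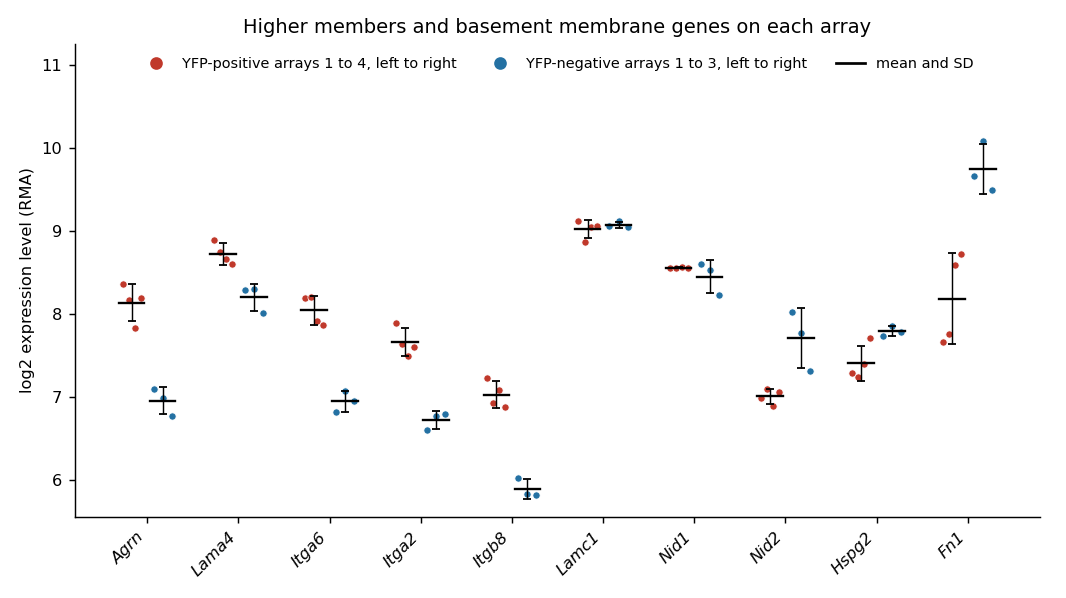
Log2 level (RMA, vertical axis) on each array of the 5 members that were higher in YFP-positive cells (Agrn, Lama4, Itga6, Itga2, Itgb8) and of Lamc1, Nid1, Nid2, Hspg2 and Fn1; red points are the 4 YFP-positive and blue points the 3 YFP-negative arrays, with the mean and SD in black. The groups do not overlap for the 5 higher members, which were chosen by a call on these same arrays. Lamc1 and Nid1 overlap, and Fn1 shows YFP-positive arrays 3 and 4 above arrays 1 and 2.

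Of the 26 integrin subunits, 3 were higher in YFP-positive cells, Itga6, Itga2 and Itgb8, where 8.39% of all genes were. They kept this call in all 15 alternative fits. Itga6, which forms laminin receptors with beta 1 or beta 4, had levels of 8.19, 8.21, 7.92 and 7.87 on YFP-positive arrays 1 to 4 against 6.82, 7.07 and 6.96. The lowest YFP-positive array was well above the highest YFP-negative array, and the log2 fold change of 1.10 ± 0.11 (SE; limma adjusted p = 7.79e-04) is a 2.14-fold difference. The other laminin-binding alpha subunits gave 0.17 ± 0.13 for Itga3, an epithelial subunit, and -0.00 ± 0.05 for Itga7, a subunit of muscle that had an identical value on 5 arrays.

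Itgb8, whose product pairs with alpha v and binds latent TGF-beta, was at 7.23, 6.93, 7.09 and 6.88 in YFP-positive and 6.03, 5.83 and 5.82 in YFP-negative samples. All arrays of the first group were higher (1.14 ± 0.11 SE; limma adjusted p = 4.96e-04; 2.20-fold). Itgav, which encodes its alpha partner, was lower, at 7.87, 8.11, 8.12 and 8.25 against 8.57, 8.83 and 8.46 (-0.54 ± 0.12 SE; limma adjusted p = 0.0224). That call was lost in 4 of the 7 fits that left out 1 array (YFP-negative 1 or 2, or YFP-positive 2 or 3; limma adjusted p of 0.0566 to 0.0729) and on YFP-positive arrays 1 and 2 only (0.0639).

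The collagen receptors split. Itga2, an alpha subunit of epithelia and platelets that binds collagen with beta 1, had levels of 7.90, 7.64, 7.50 and 7.61 on YFP-positive and 6.60, 6.77 and 6.80 on YFP-negative arrays. It was 1.92-fold higher in YFP-positive cells (0.94 ± 0.11 SE; limma adjusted p = 0.00118). Its highest level was on YFP-positive array 1, the array with the lowest mean of the epithelium list (6.97, against 7.71 to 7.82 on the YFP-negative arrays), and no gene of that list passed between the groups (0 of 15 in the limma fit, 3 with an unadjusted p under 0.05; Epcam at 0.15 ± 0.22, Cdh1 at -0.20 ± 0.40). The platelet list did not pass in 4 of 5 genes, and the exception, Pf4, was lower (-3.07 ± 0.49). The part of epithelial cells and platelets in the value of Itga2 was not tested.

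Itga1, the collagen receptor subunit of smooth muscle and fibroblasts, was lower: 6.47, 6.53, 6.72 and 7.04 against 7.41, 7.39 and 7.11. YFP-positive array 4 and YFP-negative array 3 came within 0.07 of each other, and the log2 fold change was -0.62 ± 0.15 (SE; limma adjusted p = 0.0328). Leaving out YFP-negative array 1 or 2, or YFP-positive array 1, 2 or 3, ended the call (limma adjusted p from 0.0770 to 0.119). Smooth muscle genes ran the same way, with 5 of 9 lower, and their part was not tested. Itga11, a collagen receptor subunit of fibroblasts, had -0.45 ± 0.13 (limma adjusted p = 0.0572) and passed in 3 of 15 alternative fits (limma adjusted p from 0.0358 to 0.0414). Itga10, known from cartilage, had 0.13 ± 0.07.

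Itga2 and Itga1 are next to each other on chromosome 13 with no other protein-coding gene between them in the GRCm38.p6 RefSeq table, and Itgam and Itgax are likewise neighbours on chromosome 7, followed by Itgad. The first pair differed in direction (0.94 and -0.62), while Itgam and Itgax were both lower and Itgad was not called. RefSeq start sites and upstream sequence were at hand for 28 of the 43 members, these 4 among them. The 250 bases before the start are shown to set side by side the promoters of neighbours that part and of neighbours that move together. Capitals mark matches on either strand to a purine-rich box bound by ETS-family factors (GAGGAA), a GC box (GGGCGG), an AP-1 site (TGACTCA) or a TATA box (TATAAA). The windows are, in the order below, chr13:114932101-114932350 and chr13:115101965-115102214 on the minus strand, and chr7:128062390-128062639 and chr7:128129300-128129549 on the plus strand.
Itga2: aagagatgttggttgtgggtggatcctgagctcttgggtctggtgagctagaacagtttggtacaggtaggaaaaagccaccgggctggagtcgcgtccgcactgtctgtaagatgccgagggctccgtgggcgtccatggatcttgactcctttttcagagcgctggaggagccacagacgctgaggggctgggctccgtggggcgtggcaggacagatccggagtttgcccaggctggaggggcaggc
Itga1: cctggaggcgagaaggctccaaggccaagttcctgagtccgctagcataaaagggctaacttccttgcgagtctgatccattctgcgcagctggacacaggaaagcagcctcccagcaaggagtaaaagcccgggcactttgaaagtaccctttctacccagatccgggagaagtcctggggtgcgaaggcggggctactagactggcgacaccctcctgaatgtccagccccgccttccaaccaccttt
Itgam: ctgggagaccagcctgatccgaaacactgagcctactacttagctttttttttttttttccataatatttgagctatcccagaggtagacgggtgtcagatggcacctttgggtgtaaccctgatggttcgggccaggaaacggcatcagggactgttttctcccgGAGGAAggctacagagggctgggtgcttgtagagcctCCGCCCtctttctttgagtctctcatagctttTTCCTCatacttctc
Itgax: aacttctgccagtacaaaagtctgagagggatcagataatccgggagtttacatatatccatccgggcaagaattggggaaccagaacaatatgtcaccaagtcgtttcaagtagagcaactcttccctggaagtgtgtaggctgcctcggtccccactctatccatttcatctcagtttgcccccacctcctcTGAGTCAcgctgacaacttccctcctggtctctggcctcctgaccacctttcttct
No match lay in the windows of Itga2 and Itga1. In that of Itgam the purine box was found 2 times, starting 84 and 15 bases before the start site, and a GC box at 47 bases, and the window of Itgax held the AP-1 letters at 56 bases. Of the 32851 RefSeq promoter windows of this length, 23.3% hold the purine box, 32.7% the GC box, 4.46% the AP-1 site and 12.4% the TATA box. These are matches of letters and show no binding. The windows of Itga2 and Itga1 hold 12 and 10 CpG dinucleotides, and those of Itgam and Itgax 6 and 5.

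RGD-binding alpha subunits were lower in YFP-positive cells in 3 of 4 cases, where 9.11% of all genes tested were called lower. Itga8, a receptor subunit of smooth muscle and mesenchyme for nephronectin and fibronectin, had the largest difference of any integrin outside the leukocyte group. Its level was 4.91, 5.76, 5.72 and 6.52 on YFP-positive arrays 1 to 4 and 8.27, 7.89 and 7.64 on the YFP-negative arrays. All YFP-positive arrays were lower, array 1 the most, and the 4.62-fold difference (-2.21 ± 0.36 SE; limma adjusted p = 0.00576) was -2.60 on YFP-positive arrays 1 and 2 only. Npnt, which encodes its ligand nephronectin, was lower too (-1.17 ± 0.26 SE; limma adjusted p = 0.0226). The smooth muscle list means lay at 7.47 to 9.11 on YFP-positive and 9.41 to 9.86 on YFP-negative arrays. Its defining genes Myh11 (-1.26 ± 0.43) and Actg2 (10.06 to 11.66 on YFP-positive and 11.73 to 12.10 on YFP-negative arrays) did not pass over all arrays. On YFP-positive arrays 1 and 2 only both passed, Myh11 at -1.96 (limma adjusted p = 0.00323) and Actg2 at -1.57 (0.0178), and Myh11 also passed without YFP-positive array 4 (-1.59; 0.0270). Arrays 3 and 4 were left out after this list, among others, was seen to be higher there. Larger differences of Myh11 and Actg2 without those arrays were therefore built in and are no separate result. The part of muscle in the value of Itga8 was not tested.

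Itga5, the alpha subunit of the main fibronectin receptor, followed Fn1 in direction. Levels of 6.15, 6.59, 7.03 and 7.45 on YFP-positive arrays 1 to 4 stood against 8.27, 8.25 and 7.84 (-1.31 ± 0.30 SE; limma adjusted p = 0.0240). The groups did not overlap, and YFP-positive array 4 was within 0.39 of YFP-negative array 3. The call ended on leaving out YFP-negative array 1 or 2, or YFP-positive array 2 or 3 (limma adjusted p from 0.0507 to 0.0950), with a log2 fold change of -1.24 to -1.39 in these fits. Itga2b, the platelet fibrinogen receptor subunit, gave -0.08 ± 0.09.

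Itga9 and Itga4, related alpha subunits that bind tenascin-C, VCAM1 and a splice site of fibronectin, were lower by 3.53-fold and 3.40-fold. Itga9 had levels of 5.82, 5.90, 6.55 and 6.77 against 7.88, 8.24 and 8.12 (-1.82 ± 0.25 SE; limma adjusted p = 0.00292). Itga4, which lies on lymphocytes and other blood cells and on mesenchyme, had 7.03, 6.78, 6.80 and 6.92 against 8.27, 8.45 and 9.22 (-1.76 ± 0.22 SE; limma adjusted p = 0.00179). The YFP-positive arrays differed little in Itga4, while Itga9 was higher on arrays 3 and 4 than on arrays 1 and 2. YFP-negative array 3, with the highest Itga4 level, also had the highest means of the T cell (6.51 against 5.52 and 6.10), mast cell (6.98 against 6.23 and 6.20) and erythroid lists (9.69 against 5.86 and 7.80), and their part was not tested. The mast cell gene Cpa3 stood at -3.65 ± 0.19 and the mesothelial gene Msln at -0.26 ± 0.27.

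The integrin genes Itgam, Itgb2 and Itgal of blood-derived cells had the largest differences of the 43 members. Of the 5 leukocyte alpha subunits and the beta subunits Itgb2 and Itgb7, 6 of 7 were lower and 0 higher, with a median log2 fold change of -2.19. Over all genes tested, 9.11% were called lower and 8.39% higher. Itgam, the alpha subunit of the complement receptor of macrophages and neutrophils, was 8.06-fold lower in YFP-positive cells. It stood at 4.76, 4.20, 5.03 and 5.35 against 7.63, 7.95 and 7.95 (-3.01 ± 0.26 SE; limma adjusted p = 3.59e-04). The gap between the groups exceeded the spread inside either of them.

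Itgb2, the beta subunit shared by Itgal, Itgam, Itgax and Itgad, had levels of 5.11, 4.69, 5.28 and 5.23 against 7.49, 8.23 and 8.25 (-2.91 ± 0.23 SE; limma adjusted p = 2.38e-04; 7.51-fold). Itgal, which pairs with it on lymphocytes, was at 5.03, 5.17, 5.49 and 5.23 against 7.55, 7.66 and 8.08 (-2.53 ± 0.16 SE; limma adjusted p = 1.05e-04). Itgax, a marker of dendritic cells and macrophages, was at 3.83, 4.30, 4.35 and 4.95 against 6.45, 6.65 and 6.55 (-2.19 ± 0.24 SE; limma adjusted p = 9.78e-04). In all of these the groups were apart, and YFP-positive array 4 was the highest of its group for Itgam and Itgax. Itgad, whose probe set is the brighter of a pair that gave -0.18 and -0.06, was the member of this set that did not pass (limma adjusted p = 0.344).

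Itgae and Itgb7 encode the 2 subunits of a receptor by which mucosal T cells and dendritic cells hold E-cadherin. Itgae had levels of 3.84, 3.82, 4.13 and 4.39 against 5.22, 5.64 and 6.35 (-1.69 ± 0.27 SE; limma adjusted p = 0.00582), and Itgb7 4.48, 5.04, 4.83 and 5.01 against 6.05, 5.91 and 6.23 (-1.22 ± 0.15 SE; limma adjusted p = 0.00180). Both were highest on YFP-negative array 3. Beside these values, 9 of 9 myeloid genes were lower (mean level 5.42 to 6.53 on YFP-positive and 9.38 to 9.64 on YFP-negative arrays), among them Ptprc at -3.85 ± 0.42 and Csf1r at -3.28 ± 0.26, as were 4 of 4 T cell genes (4.23 to 4.53 against 5.52 to 6.51; Cd3e at -1.18 ± 0.22). The part of these cells in the integrin values was not tested.

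Of the beta subunits, Itgb1, the partner of most alpha subunits here, had high levels in both populations: 9.07, 9.46, 9.61 and 9.66 in YFP-positive and 10.08, 10.14 and 9.68 in YFP-negative samples. The ranges nearly met, at 9.66 and 9.68, and the log2 fold change of -0.52 ± 0.18 did not pass (limma adjusted p = 0.0909, 95% interval before adjustment -0.94 to -0.11). With arrays weighted by their agreement with the rest it passed (-0.55; limma adjusted p = 0.0388). Itgb5, an alpha v partner that binds vitronectin, was 3.05-fold lower, at 6.21, 6.29, 6.10 and 6.40 against 7.99, 8.02 and 7.56 (-1.61 ± 0.13 SE; limma adjusted p = 2.86e-04). It was close to level across the YFP-positive arrays, and its fold change on arrays 1 and 2 only was again -1.61. Itgb3 (-0.24 ± 0.13), the beta subunit of platelets and osteoclasts, and the epithelial subunits Itgb4 (0.10 ± 0.08) and Itgb6 (0.05 ± 0.11) did not pass.

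**Figure D4:**
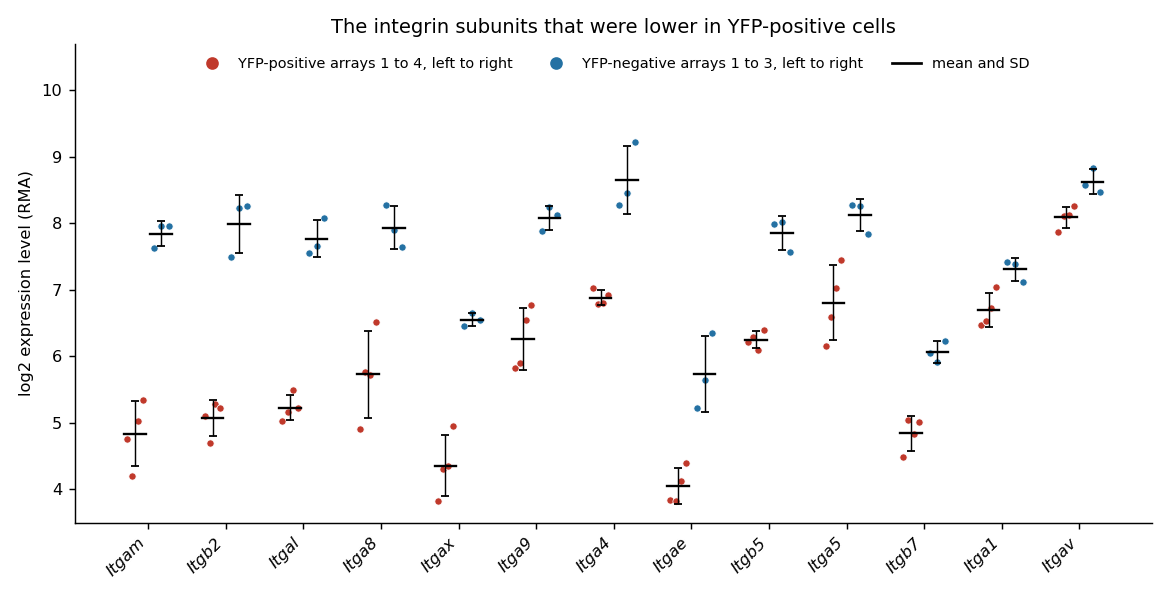
Log2 level (RMA, vertical axis) of the 13 integrin subunits that were lower in YFP-positive cells, ordered from the largest difference (Itgam) to the smallest (Itgav); red points are YFP-positive arrays 1 to 4 and blue points YFP-negative arrays 1 to 3, with the mean and SD in black. The groups do not overlap for any of the 13, which were chosen by a call on these same arrays. Itga8, Itga5, Itgam, Itga9 and Itgax spread more among the YFP-positive arrays than Itga4 and Itgb5.

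Within the YFP-positive group the lower members did not all follow the same order of arrays. Of the 15 called lower members, 9 had their lowest YFP-positive level on array 1 and 10 their highest on array 4, where all genes called lower had this in 43.9% and 47.7% of cases. Of the 5 higher members, 4 had their highest level on array 1, the exception being Itga6, at 8.19 on array 1 and 8.21 on array 2. The neuron list and the glia and progenitor list also had their highest means on array 1. Leaving out arrays 3 and 4 gave 2 matrix genes higher and 2 lower as before, but with Hspg2 called in place of Nid2 on the lower side. It gave 3 integrins higher and 12 lower in place of 13, the call of Itgav being lost.

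Other ligands of the basement membrane and matrix were more often lower than higher in YFP-positive cells: of 30 measured, 3 were higher, 11 lower and 16 did not pass, with a median log2 fold change of -0.47. Over all genes tested, 8.39% were called higher and 9.11% lower, so the higher count lies near its share. Hmcn1, which encodes the large matrix protein hemicentin, was higher by 2.23 ± 0.13 (SE), with levels of 9.32, 9.08, 8.95 and 9.11 against 6.75, 6.78 and 7.13. Its groups were further apart than those of any laminin or integrin that was higher. Tnr, a tenascin of nervous tissue (1.08 ± 0.20), and Col18a1, a basement membrane collagen (1.07 ± 0.12), were also higher. Thbs1 (-2.62 ± 0.35) and Thbs2 (-2.05 ± 0.32), thrombospondins of platelets and mesenchyme, Frem1 (-1.87 ± 0.27), a protein of the epithelial basement membrane, and Ecm1 (-1.79 ± 0.07) had the largest differences on the lower side. The 11 lower genes became 6 when YFP-negative array 1 or 2 was left out and 7 when YFP-positive array 2 was.

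Matrix receptors outside the integrin family passed in 7 of 17 cases, 2 higher and 5 lower (median -0.19). The higher count lies near the share over all genes, of which 8.39% were called higher and 9.11% lower. Gpc1, a glypican of neurons (0.65 ± 0.14), and Sdc3, the neural syndecan (0.49 ± 0.11), were higher. On YFP-positive arrays 1 and 2 only their log2 fold changes were 0.67 and 0.55, and neither passed (limma adjusted p = 0.116 and 0.0943). Gpc1 also lost its call without YFP-negative array 1 and without YFP-positive array 2 or 4 (limma adjusted p from 0.0530 to 0.0650). Sdc3 lost its call in 7 of the 15 alternative fits. Dag1, which encodes dystroglycan, the agrin and laminin receptor, did not pass (0.25 ± 0.09; limma adjusted p = 0.129). Cd44, a hyaluronan receptor, was lower by the largest amount (-2.05 ± 0.22), then the scavenger receptor gene Cd36 (-1.69 ± 0.44), the collagen receptor kinase gene Ddr2 (-1.27 ± 0.24) and Cspg4, a proteoglycan gene of pericytes (-0.89 ± 0.20). Cd36 lost its call in 7 of the 15 alternative fits, that on YFP-positive arrays 1 and 2 only among them (-1.90; limma adjusted p = 0.134), and Cspg4 in 6. The counts rest on few arrays: over the fits without 1 array they ran from 0 to 2 higher and from 1 to 6 lower, with the fewest higher on leaving out array 1 of the YFP-negative or array 2 of the YFP-positive group, and the fewest lower on leaving out array 2 of the YFP-negative group.

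Genes of the integrin adhesion complex passed in 16 of 33 cases, 3 higher and 13 lower (median -0.39). The list holds genes that tie integrins to actin and also tetraspanin genes such as Cd9. Here too the higher count lies near the share over all genes (8.39% called higher, 9.11% lower). The higher genes were the tetraspanin gene Cd9 (1.48 ± 0.17), Parvb, a parvin that joins integrin-linked kinase to actin (1.37 ± 0.19), and the tensin gene Tns3 (1.35 ± 0.09), and their groups did not overlap. The parvin genes thus differed in direction, with Parvg, the parvin of blood cells, at -2.45 ± 0.19 and Parva, the broadly expressed one, at -0.71 ± 0.18. Fermt3, the kindlin of blood cells (-1.83 ± 0.21), Tgfb1i1, a paxillin relative of smooth muscle (-1.38 ± 0.24), and the kinase gene Ptk2b (-1.35 ± 0.23) were lower. Tns2 (-1.19 ± 0.21), the adaptor gene Vcl (-0.98 ± 0.19) and the talin gene Tln1 (-0.93 ± 0.12) were lower as well; they, Parva, Npnt and Dag1 were named after their values were seen.

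**Figure D5:**
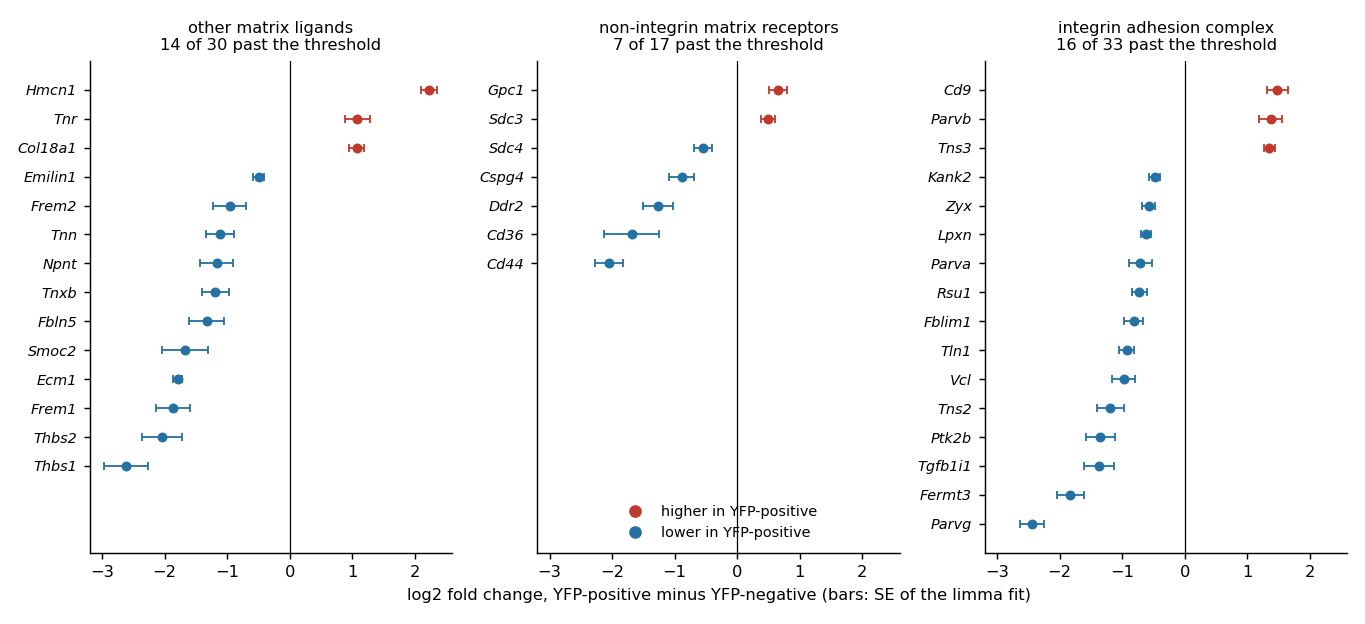
Log2 fold change (YFP-positive minus YFP-negative, horizontal axis) of the genes past the threshold in 3 further lists, with the standard error of the limma fit as bars; red marks higher and blue lower genes. In each list the lower genes outnumber the higher ones, 11 to 3, 5 to 2 and 13 to 3, where 9.11% of all genes tested were called lower and 8.39% higher.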

How the data were processed

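RNA of 7 sorted samples (4 YFP-positive, 3 YFP-negative) was amplified and hybridised to Affymetrix gene arrays, per the labels' protocols. The deposited log2 levels, 1 per probe set, come from RMA in Affymetrix Expression Console as run by the authors, per the submitters' processing notes. Versions, genome build and detection calls: not given in the sources used here. RMA and amplification of small RNA amounts can compress differences of dim genes. Of 35556 probe sets, 21789 had 1 symbol in the platform annotation, 1621 several and 12146 were not listed; the brightest probe set by mean over 7 arrays stood for each of 19938 genes. Each gene was fitted with the group as the only term by lmFit and eBayes of limma 3.58.1 in R 4.3.3, adjusted over all genes by Benjamini-Hochberg, with a threshold of 0.05; ± after a fold change is the SE of that fit. The fit was tested on simulated data. The members, gene lists, marker lists, tests and alternatives were chosen with earlier results of these data known. Every member is named, with levels on each array for those past the threshold, and of each further list up to 4 genes per direction with the largest change. Sample columns left unused numbered 0. Python 3.11.15, pandas 2.3.3, numpy 2.4.6 and matplotlib 3.10.9 served for tables and figures. Promoter sequences are RefSeq's, GRCm38.p6. Alternatives were trend and robust moderation, other array scalings, a filter on dim genes, the mean over probe sets, array weights, a replicate block, and each array left out; a fit without YFP-positive arrays 3 and 4 was added after the data were seen. Some genes of these families are not reported here.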

Additional observations from a re-analysis of the deposited data

Results flagged for a closer look

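Among the 4 YFP-positive arrays, 4 members had 1 array far from the others by Dixon's gap ratio, the gap to the nearest array over the whole range, beyond the 95% critical value for 4 samples. Lama3 was lowest on array 2 at 4.33 and Vtn on array 4 at 3.96 (gap ratio 1 for both, the other arrays sharing a value), Itga2b on array 3 at 5.01 (gap ratio 0.973) and Lamb2 on array 1 at 6.28 (0.863). None of these 4 genes passed between the groups in the limma fit, where Lama3, Vtn and Itga2b had unadjusted intervals that include 0. Chance flags about 1 in 20 groups with independent values, and 17.7% of all genes passed the limit here, with values repeated exactly between arrays for Lama3 and Vtn.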

How the results depend on the processing

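Of the 20 members past the threshold, 15 kept their call and direction in every alternative fit that held them. That on YFP-positive arrays 1 and 2 only was among these fits. Itgae, 1 of the 15, was removed by the filter on dim genes and so was checked in 14 of the 15 fits. The exceptions were Nid2, Fn1, Itga1, Itga5 and Itgav. With 1 array left out, the matrix members numbered 2 higher and 0 to 3 lower, the integrins 3 higher and 10 to 14 lower, the other matrix ligands 3 to 4 higher and 6 to 16 lower, the other receptors 0 to 2 higher and 1 to 6 lower, and the adhesion complex genes 3 higher and 11 to 16 lower. On YFP-positive arrays 1 and 2 only, 0 other receptors were higher, and the cause was not tested. Same-numbered arrays of the groups share only a number: their deviations from the group means correlated over genes at 0.0084, -0.0862 and 0.0380, and no array correlated best with its own number. The fit with this replicate block, in which YFP-positive array 4 has no partner and adds nothing to a fold change, called 12 integrins lower, without Itga1 (limma adjusted p = 0.0513), and 2 matrix members lower, with Hspg2 (0.0398) in place of Nid2 (0.0574), and 7 other ligands lower, 1 other receptor higher and 2 lower. Values near 0 changed sign. Itga7 was 0.0004 with array weights, 0.0285 with centred arrays, 0.0361 after quantile normalization and 0.0196 with the replicate block. Lamc1 was 0.0042 after quantile normalization, and Itgb6 -0.0824 and the epithelial gene Epcam -0.1967 on YFP-positive arrays 1 and 2 only and -0.0045 and -0.0295 with the replicate block. With 1 array left out, the log2 fold change ran from -0.1086 to 0.0359 for Lamb3, -0.0814 to 0.0022 for Lamc1, -0.0024 to 0.183 for Nid1, -0.0222 to 0.0196 for Itga7, -0.0045 to 0.127 for Itgb6, -0.0295 to 0.2867 for Epcam and -0.4723 to 0.1385 for Cdh1. No detection call limits what can be said of dim genes.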
